A study of Rattus norvegicus with 8 samples.

Results

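A set of 9 microglial and immune miRNAs was followed in the striatum of rats that self-administered saline or methamphetamine (METH). The members were listed by name, with no threshold on any measured value: rno-miR-146a-5p, rno-miR-146b-5p, rno-miR-155-5p, rno-miR-142-3p, rno-miR-142-5p, rno-miR-223-3p, rno-miR-21-5p, rno-miR-21-3p and rno-miR-150-5p. All 9 were found among the 752 mature miRNAs of the table, and all 9 were among the 507 miRNAs with enough counts to test. The samples were bulk striatum of male wild-type Sprague-Dawley rats. Each of 4 saline and 4 METH rats gave 1 small RNA library. The striatum is a forebrain region that serves movement and reward. All rats had been trained to press a lever for food, carried a jugular catheter kept open with heparin and gentamycin, and pressed for infusions of METH in saline or of saline alone. The age of the rats is not given in the sources used here. In the study, 4 rats of each group with steady lever pressing were chosen from a larger number for plasma sampling. That these are the sequenced rats is not stated, nor is washing of blood out of the brains. Total counts ran from 12929302 in METH rat 1 to 27632443 in saline rat 3, and between 592 and 616 miRNAs had a count in a library.

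A miRNA is cut from a hairpin precursor, which can yield a mature strand from its 5′ arm (5p) and another from its 3′ arm (3p), and bases 2 to 8 of the strand, the seed, pair with target mRNAs. Microglia are the resident macrophages of the brain and its main carriers of innate immune signalling. In macrophages, inflammatory signals acting through NF-kB induce miR-155, which strengthens the response, and miR-146a, which dampens it by repressing the adaptor proteins IRAK1 and TRAF6. The miR-142 precursor is made in most blood-derived cells, microglia included. By contrast, miR-223 is best known from neutrophils and other myeloid cells, and miR-150 from mature lymphocytes. Many cell types make miR-21, and its level rises in injured or inflamed tissue. Bulk tissue gives 1 value for all of these cells, so that fewer cells of a type and less of the miRNA per cell cannot be told apart.

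The mature strands are shown to make visible which of them share a seed. They come from RefSeq for the assembly GRCr8, in which 8 of the 9 names were matched. Seed bases are in capitals and each strand is written 5′ to 3′.
rno-miR-146a-5p: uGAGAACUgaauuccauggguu
rno-miR-146b-5p: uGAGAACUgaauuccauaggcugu
rno-miR-155-5p: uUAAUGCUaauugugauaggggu
rno-miR-142-3p: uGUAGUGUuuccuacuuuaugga
rno-miR-142-5p: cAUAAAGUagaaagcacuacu
rno-miR-223-3p: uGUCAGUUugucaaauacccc
rno-miR-21-5p: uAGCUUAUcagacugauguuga
rno-miR-21-3p: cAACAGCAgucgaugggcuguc

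The only shared seed was that of miR-146a-5p and miR-146b-5p. These paralogues were identical over their first 17 bases and over 20 of the 22 bases that could be compared. With positions counted from the 5′ end and the miR-146a-5p base first, they differed by G18A and U21C, and miR-146b-5p was longer, at 24 bases against 22. The rule for reads that align to several places is not stated, so the split of reads between them is uncertain and their sum was also tested. In GRCr8, which is not the build used for counting, Mir146a lies at chr10:28349996-28350090 on the minus strand within a long noncoding RNA gene (LOC134480673), and Mir146b lies at chr1:255144860-255144947 on the plus strand within the protein-coding gene C1h10orf95.

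The other hairpins lie apart from these. Mir155 is at chr11:37261114-37261178 on the plus strand within its noncoding host Mir155hg, and Mir223 is at chrX:65151383-65151492 on the plus strand within the noncoding gene LOC120099372. Mir142 is at chr10:73055104-73055190 on the plus strand within Tspoap1, and Mir21 is at chr10:71902600-71902691 on the minus strand with no overlapping gene of another name. Exon and intron positions were not analysed here. For the precursors that give 2 of the 9 miRNAs each, the whole hairpin shows where both strands are cut, with the mature strands in capitals and the 5p strand first.
Mir142: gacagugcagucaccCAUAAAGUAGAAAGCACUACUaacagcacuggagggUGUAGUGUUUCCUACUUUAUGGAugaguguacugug
Mir21: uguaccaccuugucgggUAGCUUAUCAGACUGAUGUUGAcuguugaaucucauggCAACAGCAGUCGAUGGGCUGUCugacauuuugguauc

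To place these miRNAs in the striatum, their levels were expressed as CPM, which are counts brought to a common library size with TMM factors (trimmed mean of M-values). Strands of nearly equal length were compared without a length correction. The 9 miRNAs together made up 3122 to 4893 CPM in a rat, and miR-21-5p and miR-150-5p alone held 86.6% to 91.6% of that sum. Among all 752 miRNAs, miR-21-5p ranked 58 by mean CPM, miR-150-5p 68, miR-146b-5p 146 and miR-146a-5p 154. The other 5 were scarce. Their ranks were 333 for miR-142-3p, 381 for miR-155-5p, 384 for miR-223-3p, 416 for miR-142-5p and 501 for miR-21-3p.

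This order is that of counted reads, and how evenly different strands were captured was not tested. The ranges of neighbours in this order lay apart at 3 steps. The ranges over the 8 rats did not meet between miR-150-5p and miR-146b-5p, where the former was 4.93 to 8.98 times higher, between miR-146a-5p and miR-142-3p, where the ratio was 5.65 to 44.5, and between miR-142-5p and miR-21-3p, where it was 1.40 to 8.0. At the other 5 steps the ranges overlapped. Within single rats, miR-21-5p exceeded miR-150-5p in all 8, by 1.15 to 4.32 times, and miR-142-3p exceeded miR-155-5p in all 8, by 1.04 to 4.69 times. In 7 of 8 rats miR-146b-5p exceeded miR-146a-5p, miR-155-5p exceeded miR-223-3p and miR-223-3p exceeded miR-142-5p. The rat that broke the order was METH rat 4 for miR-146 and for miR-155-5p over miR-223-3p.

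**Figure D1:**
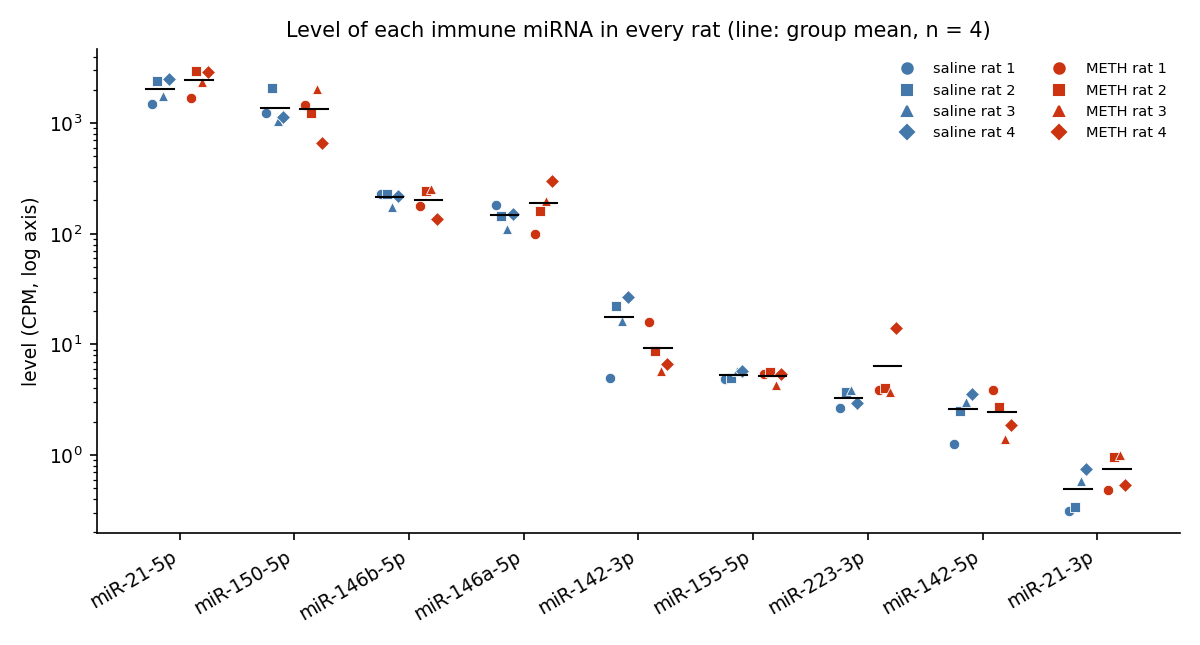
Level of each immune miRNA in every rat, in CPM on a log axis, with saline rats in blue, METH rats in red and 1 symbol per rat number. Bars are group means (n = 4). The levels fall into an upper pair between 665 and 2944 CPM, the miR-146 pair between 99.1 and 299 CPM and a low set from 26.9 CPM down to 0.314 CPM, and the saline and METH ranges of each miRNA overlap.

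The question asked of the design was whether METH self-administration moved these miRNAs. None passed. By edgeR's quasi-likelihood test, 0 of the 9 reached an adjusted p under 0.05 and 0 an unadjusted p under 0.05, and for 0 did the saline and METH ranges lie apart. Over all 507 tested miRNAs the same counts were 0 (0%), 28 (5.52%) and 16 (3.16%). The DESeq2 Wald test called 8 miRNAs and the edgeR exact test 6, none of them among the 9. The study, also with edgeR, listed miRNAs raised in the METH rats, and its list holds none of the 9. Fitted log2 fold changes (METH over saline) were above 0 for 4 of the 9 and below 0 for 5. Their median was -0.03, against -0.02 over all tested miRNAs, and their median size was 0.27, against 0.25.

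**Figure D2:**
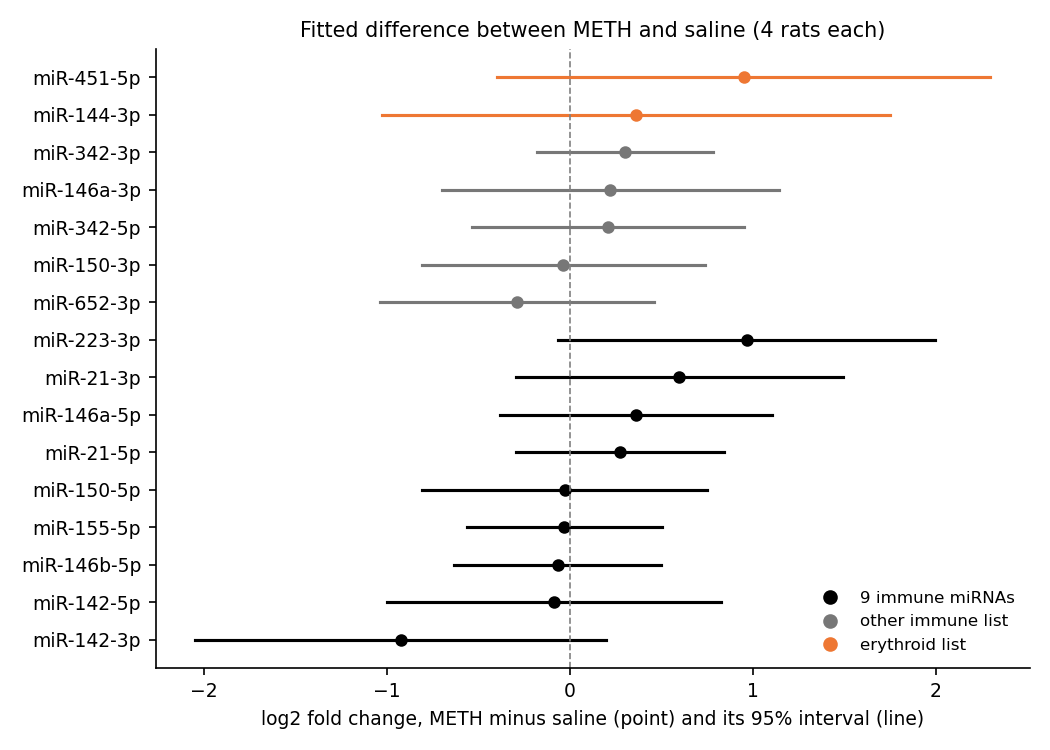
Fitted log2 fold change of METH over saline (points, edgeR) with its 95% interval (lines) for the 9 immune miRNAs in black, the tested members of a further immune list in grey and the tested erythroid miRNAs in orange. Every interval crosses 0, and the values farthest from 0 among the 9 are 0.97 for miR-223-3p and -0.92 for miR-142-3p.

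The feedback inhibitor miR-146a-5p stood at 183, 146, 110 and 152 CPM in saline rats 1 to 4 and at 99.1, 162, 198 and 299 CPM in METH rats 1 to 4. The METH group held both the lowest and the highest rat. Group means were 148 ± 29.9 CPM and 190 ± 83.9 CPM (SD, n = 4). The log2 fold change was 0.36 ± 0.33 (SE), with a 95% interval of -0.38 to 1.10. The adjusted p in edgeR was 0.868, and p was 0.457 in the exact permutation test (two-sided). Without METH rat 4 the log2 fold change was 0.05.

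Its paralogue miR-146b-5p was at 227, 230, 176 and 218 CPM in the saline rats and at 178, 246, 254 and 135 CPM in METH rats 1 to 4. Here METH rat 4 was the lowest of the 8 rats, whereas for miR-146a-5p it was the highest. The log2 fold change was -0.07 ± 0.25 (SE), with a 95% interval of -0.63 to 0.50 and an adjusted p of 0.978 in edgeR. When the counts of both paralogues were summed, the log2 fold change of the sum was 0.12.

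Because the paralogues share a seed and the same METH rat sat at opposite ends for each, the count ratio of miR-146b-5p to miR-146a-5p was taken rat by rat. This ratio needs no scaling between libraries. It was 1.24, 1.58, 1.6 and 1.43 in saline rats 1 to 4 and 1.79, 1.52, 1.28 and 0.450 in METH rats 1 to 4. Only METH rat 4 had more miR-146a-5p than miR-146b-5p. On the log2 scale the ratio was 0.54 ± 0.17 in the saline group and 0.16 ± 0.90 in the METH group (SD, n = 4; p = 0.657 in the exact permutation test). The difference of -0.38 became 0.059 without METH rat 4.

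The pro-inflammatory miR-155-5p, cut from the transcript of its own host gene, was at 4.84, 4.93, 5.73 and 5.75 CPM in the saline rats and at 5.43, 5.69, 4.32 and 5.40 CPM in the METH rats. It hardly varied from rat to rat. Its spread within groups was an SD of 0.155 on the log2 CPM scale, and 2.37% of tested miRNAs had a smaller one. Its log2 fold change was -0.03 ± 0.24 (SE) and its adjusted p in edgeR 0.985. The 95% interval of the fold, from 0.678 to 1.42, bounds how large a difference these 8 rats leave room for. These values rest on 79 to 157 counts per library. The opposite strand, miR-155-3p, had 0 counts in all 8 libraries.

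Of the strands of miR-142, the hematopoietic precursor, miR-142-3p was at 5.02, 22.4, 16.3 and 26.9 CPM in saline rats 1 to 4 and at 16.0, 8.76, 5.81 and 6.72 CPM in METH rats 1 to 4. Saline rats 2 to 4 were above every METH rat, but saline rat 1 was the lowest of all 8. Group means were 17.6 ± 9.48 CPM and 9.32 ± 4.62 CPM (SD, n = 4). The log2 fold change of -0.92 ± 0.50 (SE) had a 95% interval of -2.05 to 0.20 and did not pass, with an adjusted p of 0.818 in edgeR (exact permutation test, p = 0.286). Its spread within groups, 0.886 on the log2 scale, exceeded that of 89.5% of tested miRNAs. With 1 library left out the log2 fold change ranged from -1.31 without METH rat 1 (adjusted p of 0.457) to -0.64 without saline rat 4 (adjusted p of 0.998).

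The other strand, miR-142-5p, was at 1.26, 2.49, 3.03 and 3.60 CPM in the saline rats and at 3.85, 2.72, 1.41 and 1.86 CPM in the METH rats. The groups covered nearly the same range. Its log2 fold change was -0.09 ± 0.41 (SE), with a 95% interval of -1.0 to 0.83 and an adjusted p of 0.978 in edgeR. Only 28 to 92 counts per library stand behind these levels.

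The myeloid miR-223-3p was at 2.64, 3.69, 3.90 and 2.93 CPM in saline rats 1 to 4 and at 3.91, 4.08, 3.75 and 14.0 CPM in METH rats 1 to 4. A single rat, METH rat 4, was far above the other 7. The log2 fold change of 0.97 ± 0.46 (SE) had a 95% interval of -0.06 to 2.00 and did not pass, with an adjusted p of 0.818 in edgeR (exact permutation test, p = 0.0571). Without METH rat 4 it was 0.26, with an adjusted p of 0.998, and with the sample quality weights of limma voom it was 0.27. The 5p strand, miR-223-5p, had 0 to 5 counts per library.

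The injury-responsive miR-21-5p, the most abundant of the 9, was at 1502, 2419, 1754 and 2488 CPM in the saline rats and at 1698, 2944, 2358 and 2873 CPM in the METH rats. The lowest rat was saline rat 1 and the highest METH rat 2. Between groups the log2 fold change was 0.27 ± 0.25 (SE), with a 95% interval of -0.29 to 0.84 and an adjusted p of 0.868 in edgeR. It was 0.12 without METH rat 2 and 0.13 with library totals in place of TMM. Its minor strand, miR-21-3p, was at 0.314, 0.343, 0.583 and 0.743 CPM in the saline rats and at 0.481, 0.956, 1.01 and 0.540 CPM in the METH rats. With 7 to 25 counts per library it had the fewest counts of the 9, and its log2 fold change of 0.60 ± 0.40 (SE) had a 95% interval of -0.29 to 1.49 and an adjusted p of 0.818 in edgeR.

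The lymphocyte-associated miR-150-5p was at 1239, 2066, 1053 and 1141 CPM in the saline rats and at 1450, 1227, 2052 and 665 CPM in the METH rats. Saline rat 2 and METH rat 3 were the high rats and METH rat 4 the lowest. METH over saline gave a log2 fold change of -0.03 ± 0.35 (SE), with a 95% interval of -0.81 to 0.75 and an adjusted p of 0.985 in edgeR. The mean of miR-150-5p over all rats was 1361 CPM, against 13.5 CPM for miR-142-3p and 4.87 CPM for miR-223-3p. The cells that miR-150-5p came from were not tested.

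Some rats recurred at the ends of these series. Saline rat 1 was the lowest of the 8 rats for 5 of the 9 miRNAs, namely both strands of miR-142, both strands of miR-21, and miR-223-3p. It was the lowest rat for 12.8% of all tested miRNAs. METH rat 4 was the highest for miR-146a-5p and miR-223-3p and the lowest for miR-146b-5p and miR-150-5p. Its library stood apart in general, being the highest for 30.4% and the lowest for 34.7% of tested miRNAs, where each other library was the highest for 6.71% to 13% and the lowest for 6.11% to 14.2%. It also had the smallest TMM factor, 0.766 against 0.959 to 1.15. The part of this library in the values above was not tested beyond the fits without it.

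**Figure D3:**
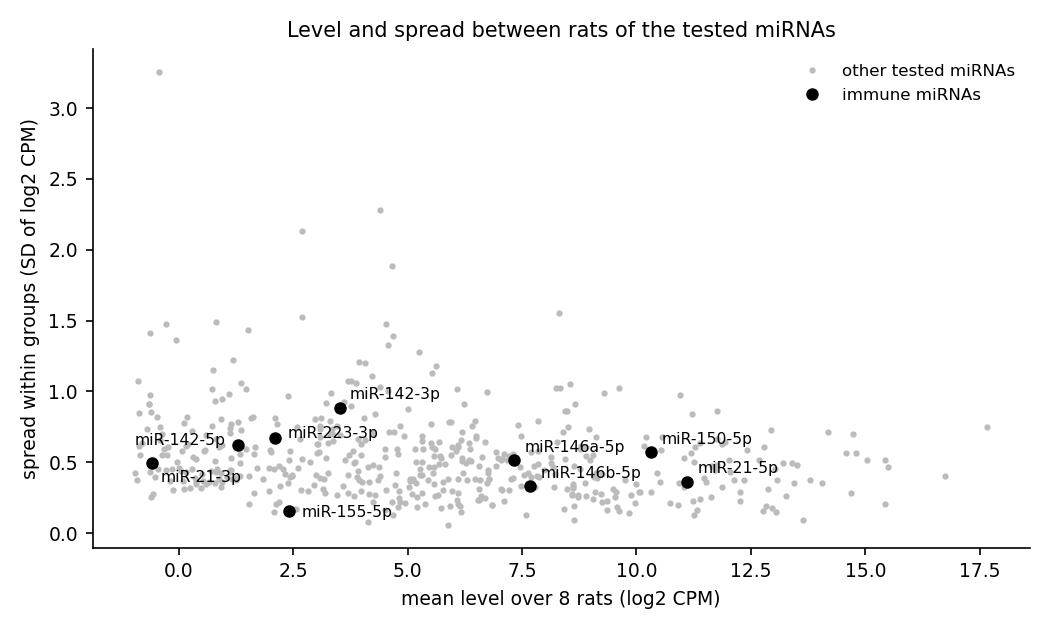
Mean level over 8 rats (log2 CPM) against the spread within groups (pooled SD of log2 CPM) for the 507 tested miRNAs, with the 9 immune miRNAs in black and named. Among the scarce members, miR-155-5p lies at the low edge with 0.155 and miR-142-3p lies high with 0.886. The median over all tested miRNAs is 0.475.

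Both strands of a precursor come from 1 transcript, so the count ratio of the 5p to the 3p strand within a library compares the arms without any scaling between libraries. The 9 miRNAs come from 7 precursors, and in 4 of these both strands passed the low-count filter. Their ratios were tested with limma together with those of all 174 such precursors. Of the 4, 0 passed an adjusted p of 0.05 and 0 had an unadjusted p under 0.05, against 0 (0%) and 5 (2.87%) of the 174. The remaining 3 precursors, miR-146b, miR-155 and miR-223, had a minor strand with at most 15 counts in a library.

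Among these 4 precursors the arms of miR-21 were the most unequal. In a rat, miR-21-3p made up 0.0142% to 0.0428% of the counts of both arms (median 0.0291%), and only 3 of the 174 precursors had a smaller minor share. The log2 ratio of 5p to 3p was 12.0 ± 0.531 in the saline group and 11.7 ± 0.471 in the METH group (SD, n = 4). This difference of -0.33, with a 95% interval of -1.34 to 0.69, did not pass (adjusted p of 0.926 in limma). It was -0.095 without saline rat 2 and -0.53 without METH rat 4. In the rat with the lowest share, saline rat 2, the exact binomial 95% interval of that share ran from 0.00613% to 0.0280%, which covers counting error only.

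For miR-142 the order of the arms was the opposite, with the 3p strand in excess in all 8 rats. The 5p strand made up 20%, 10%, 15.7% and 11.8% in saline rats 1 to 4 and 19.4%, 23.7%, 19.6% and 21.7% in METH rats 1 to 4. Saline rats 2 to 4 were below every METH rat, and saline rat 1 lay among the METH rats. The log2 ratio of 5p to 3p was -2.61 ± 0.521 in the saline group and -1.90 ± 0.173 in the METH group (SD, n = 4). The difference of 0.72 ± 0.35 (SE) had a 95% interval of -0.07 to 1.5 and did not pass, with an adjusted p of 0.926 in limma (exact permutation test, p = 0.0857). Leaving out single libraries put it between 0.54 (saline rat 2 left out) and 0.93 (saline rat 1 left out), and at the latter the adjusted p was 0.836. In 126 of the 174 precursors the minor share was smaller than that of miR-142.

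The minor strands of miR-146a and miR-150 were rare as well. The share of miR-146a-3p was 0.245% to 1.25% and that of miR-150-3p 0.0852% to 0.405%, and 31 and 16 of the 174 precursors had smaller minor shares, against a median of 6.66% over all 174. Neither ratio differed beyond the spread between rats. The METH minus saline difference in log2 ratio was 0.03 for miR-146a (adjusted p of 0.988 in limma) and 0.01 for miR-150 (adjusted p of 0.990 in limma). With 1 library left out these differences ran from -0.32 to 0.45 and from -0.36 to 0.38. Within the METH group, the log2 ratio of miR-146a was 8.43 in rat 4 and 6.85 to 7.10 in the others, and saline rat 1 was also high at 8.60.

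**Figure D4:**
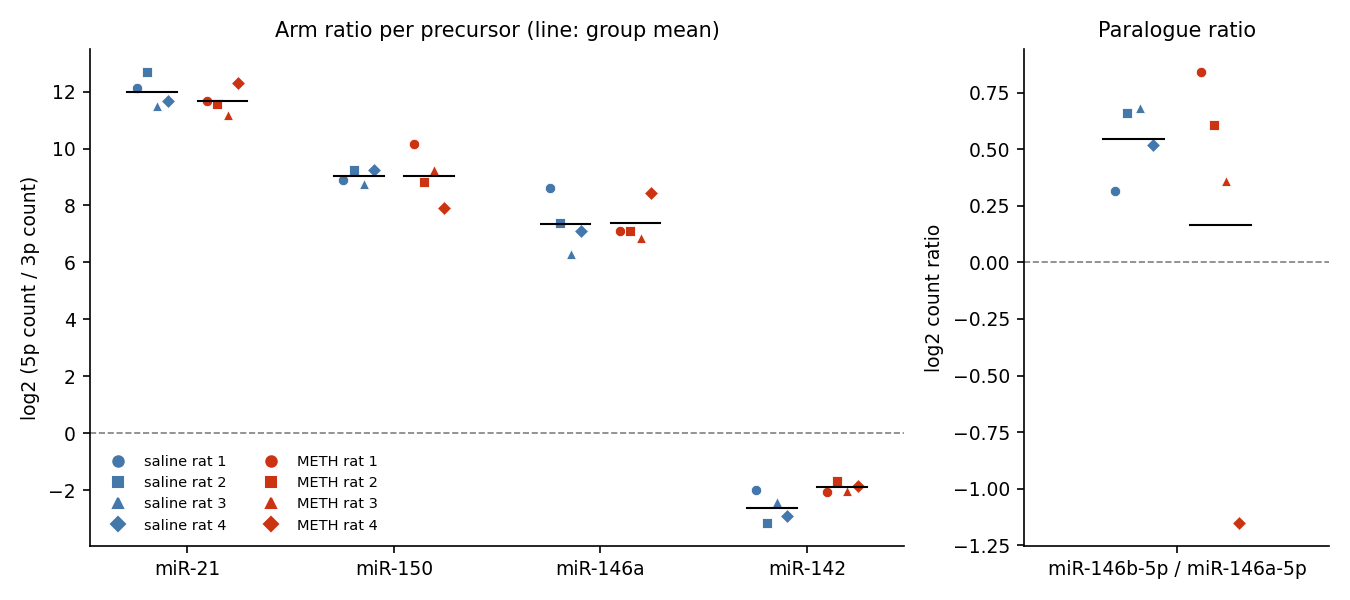
Left, log2 ratio of the 5p to the 3p count in every rat for the 4 precursors with both strands tested. Right, log2 count ratio of miR-146b-5p to miR-146a-5p. Blue is saline, red is METH, bars are group means (n = 4) and the dashed line marks equal counts. For miR-142 the values lie below 0 in all 8 rats, and on the right METH rat 4 lies alone below 0, at -1.15.

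Blood left in the tissue carries its own miRNAs, and several of the 9 are abundant in white blood cells, so the erythroid miRNAs made by red cell precursors were set beside them. Of the 5 names listed, miR-451-5p, miR-144-3p and miR-144-5p were in the table. Their summed level was 613, 644, 403 and 546 CPM in saline rats 1 to 4 and 442, 342, 648 and 2817 CPM in METH rats 1 to 4. Most of this sum was miR-451-5p, which alone reached 2807 CPM in METH rat 4. That rat was far above the other 7, which spanned 342 to 648 CPM.

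Across the 8 rats, log2 CPM of each miRNA was then compared with the log2 erythroid sum, as a family of 505 relations tested by exact permutation of the pairings. Of the 9 members, 0 had a relation with an adjusted p under 0.05, against 0 (0%) of the 505. At an unadjusted p under 0.05 there was 1 of the 9, miR-146a-5p, against 138 (27.3%) of the 505. Without METH rat 4 the count over all miRNAs was 21, and the 1 member was miR-155-5p (exact permutation p = 0.0433), with miR-146a-5p at an exact permutation p of 0.246. Without saline rat 3 there was 0 of the 9, against 96 over all miRNAs. For miR-146a-5p Pearson's r was 0.811 (exact permutation p = 0.0154, adjusted p = 0.164) and Spearman's rho was 0.643 (exact permutation p = 0.0962, adjusted p = 0.496). Leaving out METH rat 4 and METH rat 2, the rats farthest from the median erythroid level, gave r = 0.882, while leaving out METH rat 4 alone gave r = 0.512.

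The relation of miR-223-3p was of another kind. Its r was 0.833 (exact permutation p = 0.111, adjusted p = 0.220), but its rho was -0.0952 (exact permutation p = 0.840, adjusted p = 0.943). Without the same pair of rats r was -0.411, and without METH rat 4 alone it was -0.544, so the positive r rested on that rat. The sign also turned for miR-146b-5p, where r was -0.635 (exact permutation p = 0.108, adjusted p = 0.220) and rho -0.0238 (exact permutation p = 0.977), and r was 0.968 without the pair of rats. It turned again for miR-150-5p, where r was -0.518 (exact permutation p = 0.215, adjusted p = 0.338) and rho 0.143 (exact permutation p = 0.752), and r was 0.660 without them. For miR-155-5p rho was -0.667 (exact permutation p = 0.0831, adjusted p = 0.482) and r was -0.159 (exact permutation p = 0.740, adjusted p = 0.798), so neither passed. Its r was -0.772 without the pair of rats and -0.041 without METH rat 2 alone. With library totals in place of TMM its r was -0.696 (exact permutation p = 0.0537, adjusted p = 0.210). For the remaining 4 members r lay between -0.414 and 0.356, and 0 of them passed. Levels were also centred within each group, so that only differences among rats of a group count. This gave r = 0.798 for miR-146a-5p and 0.857 for miR-223-3p. The adjusted p was 0.0840 for each when pairings were permuted across both groups. Centred levels can be exchanged only within a group, so this permutation is not exact and no conclusion was drawn from its p-values. The centring kept METH rat 4, and 206 of the 505 miRNAs had an unadjusted p under 0.05 by the same permutation. The part of blood in the levels of these miRNAs was not tested.

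**Figure D5:**
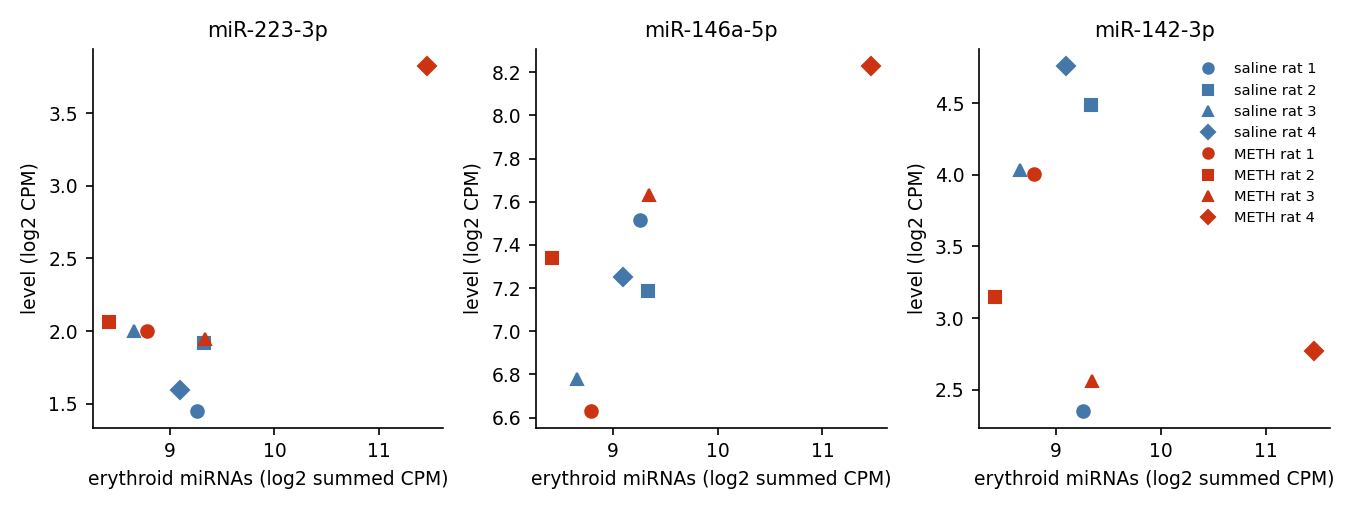
Level of miR-223-3p, miR-146a-5p and miR-142-3p (log2 CPM) against the summed level of erythroid miRNAs (log2 of summed CPM), with 1 point per rat, saline in blue and METH in red. METH rat 4, at 11.5 on the horizontal axis, is the highest point for miR-223-3p and miR-146a-5p but not for miR-142-3p, and the other rats lie between 8.42 and 9.34.

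A further list of 11 immune miRNAs was read in the same fit. It holds strands opposite to the 9 and other miRNAs linked to monocytes, macrophages or lymphocytes, and 5 of the 11 passed the low-count filter. Those that passed the test were 0 in either direction, at adjusted and at unadjusted p in edgeR, with a median log2 fold change of 0.21. The values were 0.30 for miR-342-3p, 0.21 for miR-342-5p, 0.22 for miR-146a-3p, -0.04 for miR-150-3p and -0.29 for miR-652-3p. The last of these spanned 2016 CPM in METH rat 3 to 7090 CPM in METH rat 4, on both sides of the saline range of 6152 to 6500 CPM. The 6 under the filter were miR-147, both strands of miR-511, miR-155-3p, miR-223-5p and miR-146b-3p.

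Markers of other cells in the striatum gave the setting for these values. In edgeR, 0 of the 6 tested neuronal, 0 of the 3 oligodendrocyte, 0 of the 5 vascular and 0 of the 2 tested erythroid miRNAs passed at adjusted or unadjusted p, with median log2 fold changes of 0.01, -0.17, 0.07 and 0.65. Neuronal miRNAs such as miR-124-3p were abundant in every rat. Their sum was 258747 to 464772 CPM in the saline rats and 307186 to 447609 CPM in the METH rats. Within that sum the miRNAs differed, with log2 fold changes above 0 for 3 and below 0 for 3. In METH rat 4, miR-124-3p was at 97752 CPM, below its saline range of 127824 to 340285 CPM. In the same rat miR-9a-5p was at 204524 CPM, above its saline range of 89166 to 109646 CPM. Summed oligodendrocyte levels were 2897 to 3191 CPM in the saline rats and 2334 to 4492 CPM in the METH rats. Their log2 fold changes were 0.35 for miR-219a-2-3p, -0.24 for miR-219a-5p and -0.17 for miR-338-3p. In METH rat 4, miR-219a-2-3p was at 4119 CPM, above its saline range. There miR-219a-5p was at 113 CPM and miR-338-3p at 259 CPM, each below its saline range. Summed vascular levels were 10550 to 11214 CPM in the saline rats and 11011 to 13885 CPM in the METH rats. Groups did not overlap for 1 of the 5 vascular miRNAs, miR-143-3p, against 16 (3.16%) of all 507. The log2 fold changes of the vascular miRNAs were 0.39 for miR-143-3p, 0.12 for miR-126a-3p, 0.07 for miR-145-3p, -0.03 for miR-145-5p and -0.49 for miR-126a-5p.

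To see which miRNAs varied with each member from rat to rat, the tested miRNA with the most similar log2 CPM over the 8 rats was found by Pearson's r, given here as a description. Each r is the highest of many over only 8 rats, so the search itself selects high values. Strands of 1 precursor need not be nearest to each other. For miR-142-5p the nearest was miR-137-3p (r = 0.983), and for miR-142-3p it was miR-98-3p (r = 0.964). The nearest to miR-146a-5p was miR-181a-1-3p (r = 0.955), to miR-146b-5p miR-29b-5p (r = 0.937), to miR-155-5p miR-582-5p (r = 0.925) and to miR-150-5p miR-362-5p (r = 0.935). For miR-223-3p it was miR-421-5p, where r was 0.951 and rho 0.667. For miR-21-5p and miR-21-3p they were miR-1843a-3p (r = 0.781) and miR-125a-5p (r = 0.895).

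The 9 miRNAs did not vary as 1 block. Over their 36 pairs the median r across the 8 rats was 0.03, from -0.774 to 0.851, with 16 pairs negative. Over all 128271 pairs of tested miRNAs the median was 0.01. The closest pair was that of the miR-142 strands (r = 0.851, rho 0.762), followed by miR-155-5p with miR-142-5p (r = 0.767) and miR-146b-5p with miR-150-5p (r = 0.762). The strands of miR-21 had r = 0.557, and the paralogues miR-146a-5p and miR-146b-5p had r = -0.173. That negative r rested on METH rat 4, the highest rat for miR-146a-5p and the lowest for miR-146b-5p. METH rat 4 was also the lowest for miR-150-5p, which bears on the r of miR-146b-5p with miR-150-5p. Values of r without this library were not computed for these pairs. All of these pairs share their libraries and scaling factors.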

How the data were processed

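Small RNA libraries of 8 rat striata were analysed, 4 per group by the treatment in the labels. Rats are numbered in the order of their labels, so a number is only a name. The p-values measure the spread between these rats. The authors gel-purified small RNA from TRIzol extracts, built BGISEQ-500 libraries with unique molecular identifiers (UMIs), trimmed reads with cutadapt 1.18, aligned them to rn6 with STAR 2.7.0e and counted them with featureCounts of Subread 1.6.4, per the study's methods and processing notes. The deposited values are raw counts per mature miRNA. Merging of reads by UMI, the miRNA annotation release and the handling of multiply aligned reads are not stated, so intervals on counts cover counting error only. Of the 752 rows, 90 had no count, and 29 rows held only even counts, 0 of them among the 9 miRNAs. No libraries were near-identical.

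Counts were filtered with filterByExpr (minimum count 10), scaled by TMM and tested over 507 miRNAs by quasi-likelihood (edgeR 4.0.16, R 4.3.3). The model held the group alone, and p-values were adjusted by Benjamini-Hochberg with a threshold of 0.05. The SE of a log2 fold change is its size over the square root of F. Per-rat log2 CPM used a prior count of 2. Arm ratios used a pseudocount of 0.5 and limma 3.58.1. Single values were compared by two-sided exact permutation over 70 assignments, with a smallest possible p of 0.0286, and erythroid relations over 40320 pairings. Alternatives were other scalings, filters and tests (DESeq2 1.42.0 among them), other pseudocounts, summed strands or paralogues, the rat number as a block, and each library left out.

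All members and lists were chosen with earlier results of these data known. The text names every member, every tested miRNA of the further immune list, markers that bear on a result, and the nearest miRNA to each member. Sequences are from RefSeq (GRCr8), which matched 685 of the 752 rows.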

Additional observations from a re-analysis of the deposited data

Results flagged for a closer look

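Each member's log2 CPM, the arm ratios, the miR-146 ratio and the erythroid sum were screened in each group, 30 sets of 4 values, for 1 value lying apart. Such a value was found in 2 sets, where chance gives about 1.5, or 1 set in 20. Both were METH rat 4. For miR-223-3p this rat's level was 3.82 log2 CPM, while the other METH rats were at 1.94 to 2.06, a gap of 0.938 of the group's range. For the log2 ratio of 5p to 3p counts of miR-146a it was at 8.43 against 6.85 to 7.10, a gap of 0.840 of the range, just past the limit for such a gap and resting on 14 counts of miR-146a-3p. The same library had the highest erythroid level of the 8, and its part in either value was not tested.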

How the results depend on the processing

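The count of the 9 miRNAs with an adjusted p under 0.05 was 0 under every scaling, filter and test tried and with each library left out, where the lowest adjusted p of any of them was 0.318 (limma voom). At an unadjusted p under 0.05 there was 1 of the 9 with DESeq2 (34 over all miRNAs), upper quartile factors (30), voom (58), without saline rat 1 (31) and without METH rat 3 (25), and 2 without METH rat 1 (54). These were miR-223-3p or miR-142-3p, and the other settings gave 0. Over all miRNAs, DESeq2 made 8 calls and the edgeR exact test 6, and the fits without 1 library made 0 to 5, the 5 without METH rat 1. Of the members' log2 fold changes, the direction was kept in 84 of 95 values under other settings and in 63 of 72 without 1 library, and the cause of the reversals was not tested. The reversals concerned 4 members whose values were between -0.09 and -0.03. With upper quartile factors, which moved the median over all miRNAs from -0.02 to 0.08, they were 0.016 for miR-146b-5p, 0.077 for miR-155-5p, 0.049 for miR-142-5p and 0.075 for miR-150-5p. With voom they were 0.20 for miR-146b-5p and 0.18 for miR-150-5p. With DESeq2 size factors miR-155-5p was at 0.030 and miR-150-5p at 0.0069, and with DESeq2 itself at 0.024 and 0.0069. Summing the paralogues gave 0.12 in place of the value of miR-146b-5p.

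Leaving out 1 library gave -0.22 to 0.091 for miR-146b-5p, -0.12 to 0.038 for miR-155-5p, -0.38 to 0.10 for miR-142-5p and -0.30 to 0.25 for miR-150-5p. It gave 0.26 to 1.14 for miR-223-3p, lowest without METH rat 4, -1.31 to -0.64 for miR-142-3p, 0.05 to 0.57 for miR-146a-5p, 0.12 to 0.42 for miR-21-5p and 0.38 to 0.82 for miR-21-3p. Arm ratio differences ranged from 0.54 to 0.93 for miR-142, from -0.53 to -0.095 for miR-21, from -0.32 to 0.45 for miR-146a and from -0.36 to 0.38 for miR-150, and a pseudocount of 5 put the last 2 at -0.0021 and -0.049. The miR-146 ratio difference ranged from -0.61 to 0.059. Relations to the erythroid level ranged from -0.769 to 0.389 for miR-146b-5p, from -0.544 to 0.891 for miR-223-3p, from -0.137 to 0.652 for miR-21-5p and from -0.617 to 0.624 for miR-150-5p, each reversed without METH rat 4. With library totals r was -0.038 for miR-21-5p, -0.696 for miR-155-5p and -0.524 for miR-21-3p. With TMM these were 0.356, -0.159 and -0.190.

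The replicate block gave 0 calls and log2 fold changes of -0.90 for miR-142-3p and 0.71 for miR-223-3p. It pairs rats by number alone, and their deviations correlated at -0.34, -0.15, -0.15 and -0.36. Depth limited miR-21-3p most, with 7 to 25 counts, and it had no value when 10 counts were required in every library.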
